A study of Mus musculus with 16 samples.

Results

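The 6 actin genes of the mouse (Acta1, Actc1, Acta2, Actg2, Actb and Actg1) were followed in RNA sequencing of poly(A) RNA from C2C12. This established line of mouse muscle precursors divides while kept in growth medium (GM), and its cells can fuse into multinucleate myotubes once moved to differentiation medium (DM). They were chosen by name as the complete conventional actin family, 6 of the 24497 genes in the deposited tables, and all 6 passed the filter on low counts. The 16 libraries form 8 groups of 2. Each group is a combination of a genotype label (WT, or MYOD-/- made with CRISPR-Cas9 and screened from single cells), a stably transfected vector (EV, which is empty, or one carrying spliced MUNC, a noncoding RNA) and a medium (GM, or DM). Every group carries a vector, so no group is untransfected, and the labels give all cells the strain C57BL/6, skeletal muscle as source and postnatal day 21. Separate cultures are not stated for the 2 replicates of a group, and the p-values therefore reflect spread between libraries that may be technical. Separately made lines are not stated for a combination of label and vector either. Differences between labels or vectors therefore cannot be told apart from differences between lines. In bulk RNA, fewer cells of a type and less RNA per cell cannot be told apart.

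Actin is the protein of the thin filaments of muscle and of the microfilaments of every cell. Mammals make it from 6 genes: Acta1 (skeletal muscle) and Actc1 (cardiac muscle) code for the sarcomeric forms, Acta2 (vascular) and Actg2 (enteric) for the smooth muscle forms, and Actb and Actg1 for the cytoplasmic beta and gamma forms. In developing muscle the cytoplasmic forms are known to give way to the sarcomeric ones, with Actc1 and Acta2 transiently made by young myotubes and Acta1 the form of adult fibres. Transcription of these genes is known to depend on serum response factor (Srf) and its partners of the myocardin family, of which the myocardin-related factors sense the pool of free actin.

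The genes lie on 6 different chromosomes, all on the minus strand (RefSeq, GRCm38.p6): Actc1 on chromosome 2 (114047282 to 114052875), Actb on chromosome 5 (142903115 to 142907976), Actg2 on chromosome 6 (83512909 to 83536251), Acta1 on chromosome 8 (123891758 to 123894775), Actg1 on chromosome 11 (120345687 to 120348495) and Acta2 on chromosome 19 (34240336 to 34255585). Their coding sequences are close relatives, so the first 60 coding bases are shown to let the genes be compared base by base. They come from GENCODE M21 transcripts. Capitals mark bases that differ from Acta1 in a global alignment of the whole coding sequences, and bases of Acta1 with no partner are not marked.
Acta1: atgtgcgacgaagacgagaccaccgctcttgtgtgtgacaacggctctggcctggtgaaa
Actc1: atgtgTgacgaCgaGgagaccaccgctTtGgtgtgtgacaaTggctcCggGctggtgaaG
Acta2: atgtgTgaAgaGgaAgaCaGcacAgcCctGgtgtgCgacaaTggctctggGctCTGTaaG
Actg2: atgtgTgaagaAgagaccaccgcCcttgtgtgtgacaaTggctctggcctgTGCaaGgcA
Actb: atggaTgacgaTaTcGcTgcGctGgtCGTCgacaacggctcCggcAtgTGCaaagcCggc
Actg1: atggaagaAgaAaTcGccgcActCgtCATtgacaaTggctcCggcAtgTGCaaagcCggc

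Over the whole coding sequence the identity was highest between Actb and Actg1 (88.7% of 1128 aligned bases), then between Acta1 and Actc1 (86.2% of 1134), and lowest between Actg1 and Actc1 or Acta2 (81.9% for each). Reads of 75 bases were nevertheless long enough to separate nearly all of each transcript. Windows of 75 bases found word for word in another of the 6 transcripts made up 0.219% of Acta1 and 0.163% of Actb, and 0 windows of the other 4 genes. At 31 bases the shared part was 7.20% of Actb, 5.98% of Actg1, 4.03% of Acta1, 1.30% of Acta2, 0.832% of Actc1 and 0.767% of Actg2. The estimated counts of Actg2 were whole numbers in all 16 libraries, as they are when no fragment is divided between transcripts. Those of Actc1 were whole in 10 of the 16, and a trace above a whole number in the rest (17.0001 in WT-labelled EV replicate 1 in GM). Acta1 and Actg1 each had 2 transcripts in the tables, and 1 of them held 94.6% to 100% of the Acta1 level and 99.1% to 99.5% of the Actg1 level in every library. Other Act symbols added little to conventional actin: Actbl2 stood at no more than 0.0097 TPM (a level per transcript length, scaled to the same total in every library).

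Promoter windows were given for 4 of the 6 genes by RefSeq (GRCm38.p6). That of Acta2 precedes a start inside the annotated gene and overlaps the locus given above, so it is not used here. For the other 3 the 250 bases before the gene's outer start are shown because each holds a serum response motif, and this CArG box, the sequence that serum response factor binds, is in capitals.
Acta1 (chr8:123894776-123895025, minus strand): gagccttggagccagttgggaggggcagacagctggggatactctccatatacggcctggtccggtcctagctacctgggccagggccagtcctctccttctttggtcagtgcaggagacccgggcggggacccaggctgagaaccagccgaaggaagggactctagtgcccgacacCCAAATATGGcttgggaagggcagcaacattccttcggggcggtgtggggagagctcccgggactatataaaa
Actc1 (chr2:114052876-114053125, minus strand): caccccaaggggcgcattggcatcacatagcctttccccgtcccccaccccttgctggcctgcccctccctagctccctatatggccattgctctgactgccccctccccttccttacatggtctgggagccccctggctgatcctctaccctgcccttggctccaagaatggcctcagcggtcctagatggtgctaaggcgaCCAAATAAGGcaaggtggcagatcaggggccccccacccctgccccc
Actg1 (chr11:120348496-120348745, minus strand): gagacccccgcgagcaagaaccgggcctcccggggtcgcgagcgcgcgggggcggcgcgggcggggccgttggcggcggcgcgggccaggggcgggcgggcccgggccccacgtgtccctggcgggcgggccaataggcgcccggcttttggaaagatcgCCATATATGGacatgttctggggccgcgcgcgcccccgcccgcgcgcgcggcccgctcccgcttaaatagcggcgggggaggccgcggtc

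The CArG box was searched only in its strict form, CC and GG around a fixed run of A or T, so near matches were not counted. Between 250 bases before the start and 50 after it, this form occurred once each in Acta1 (first base 73 bases before the start), Actc1 (47 before) and Actg1 (90 before). It occurred in 1.63% of the 32851 promoters of this length. The E-box CANNTG, the core recognised by Myod1 and other basic helix-loop-helix factors and the same on both strands, occurred 2 times in Acta1 and 1 time each in Actc1 and Actg1. It occurred in 72.3% of all promoters. CATTCC, the core recognised by Tead factors, was searched on both strands and occurred in Acta1 (46 bases before the start), and in 14.7% of all promoters.

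The summed estimated counts per library were 35832002 to 107732971 (median 61150928). Myod1, the targeted gene, went against the labels: it stood at 0.0149 to 4.1 TPM in the 8 WT-labelled libraries and at 4.35 to 39.7 TPM in the 8 MYOD-/- labelled ones, so genotype is given throughout as a label. The sources used here do not state which part of Myod1 was deleted. The replicate numbers stood apart in Zrsr1, a splicing factor gene, which took 1.49% to 13% of the counts of the replicate 2 libraries and 0.00792% to 0.0344% of those of replicate 1. Changes of the actin genes were therefore also taken within each replicate number. The sign was the same in replicate 1 alone, in replicate 2 alone and in the fit for 26 of the 26 pairs of a gene and a 2-group comparison that were called, which the call from the same libraries largely fixes, and for 24 of the 46 that were not.

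Together the 6 genes made up 0.692% to 1.47% of all TPM. In every library Actb and Actg1 supplied most of this, with Acta2 next. Medians over the 16 libraries were 4717 TPM for Actg1, 3675 TPM for Actb, 919 TPM for Acta2, 66.8 TPM for Actg2, 9.39 TPM for Acta1 and 1.18 TPM for Actc1. The order was reversed for variation: the highest library exceeded the lowest 2.53-fold for Actg1, 2.67-fold for Actb, 10.6-fold for Acta2, 26.5-fold for Actg2, 1188-fold for Acta1 and 3159-fold for Actc1 (the lowest Actc1 library had 2 counts).

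**Figure D1:**
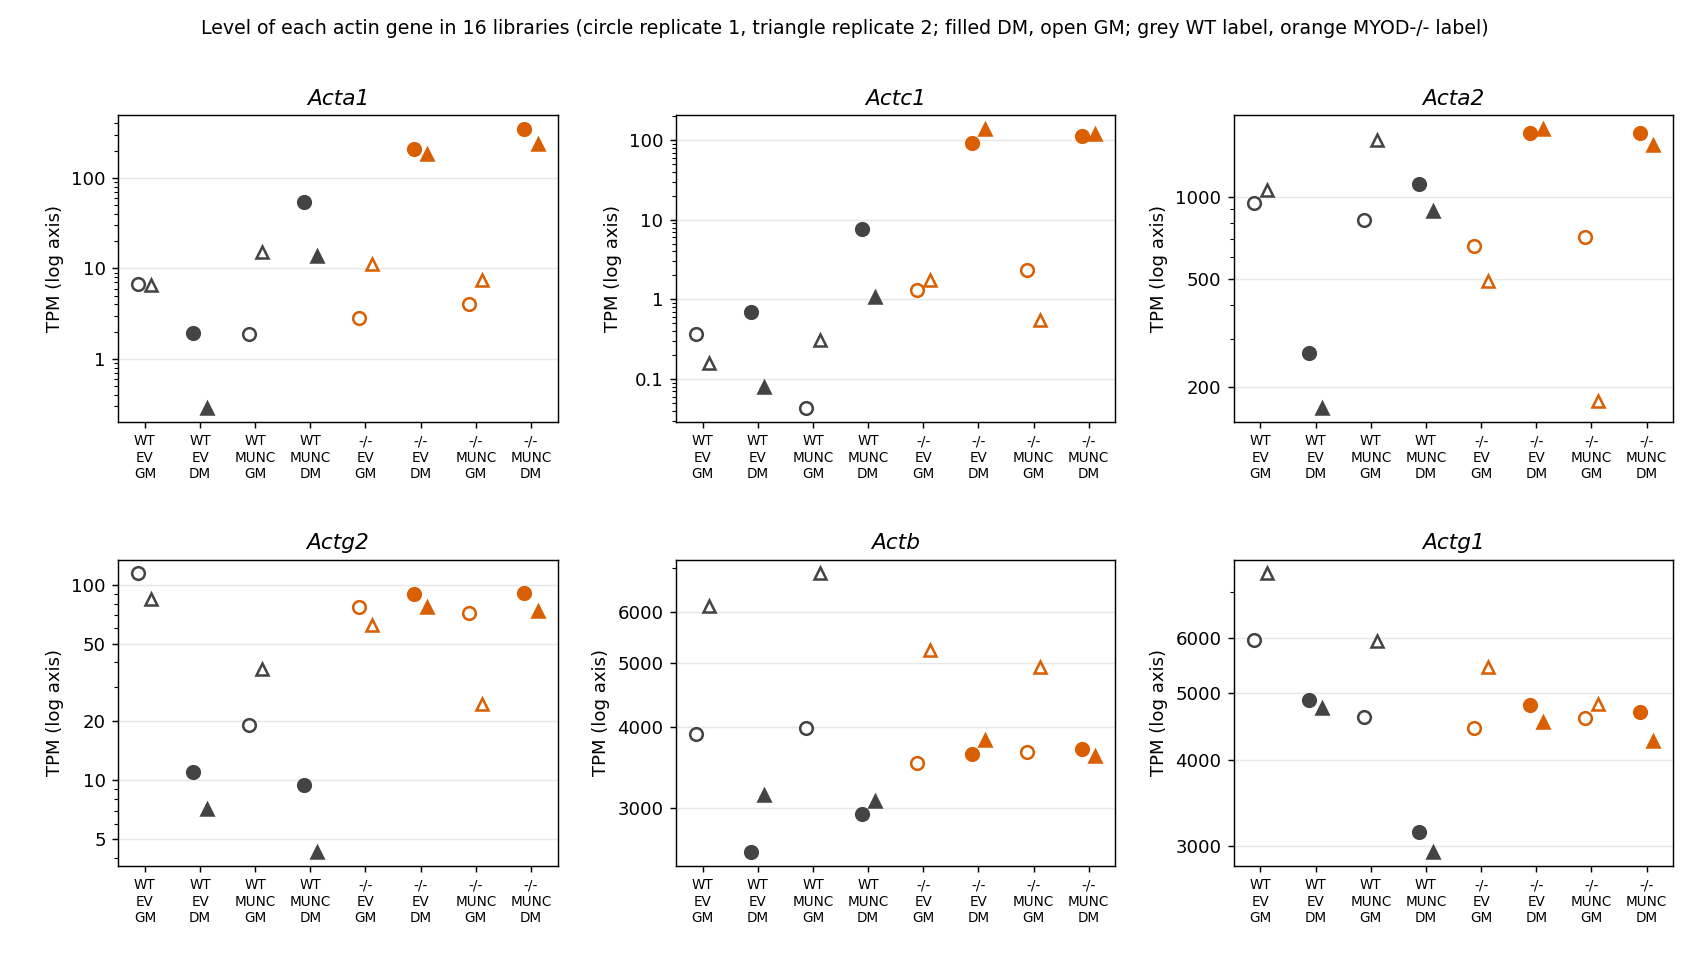
Level of each actin gene in TPM (log axes that differ between panels) in the 16 libraries, by group; circles are replicate 1, triangles replicate 2, filled symbols DM, open symbols GM, grey the WT label and orange the MYOD-/- label. The 4 MYOD-/- labelled DM libraries sit above all others for Acta1 (185 TPM or more) and Actc1 (93.2 TPM or more), and the 2 WT-labelled EV libraries in DM are the lowest DM libraries for Acta2 (266 and 168 TPM).

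The change from GM to DM differed between the lines in which of the 6 genes passed the test (edgeR's quasi-likelihood test, Benjamini-Hochberg adjusted p below 0.05 over 14972 genes). In WT-labelled EV cells 4 of the 6 changed, all lower in DM (Acta2, Actg2, Actb and Actg1), where 37.5% of all genes tested were called. In WT-labelled MUNC cells 4 of the 6 changed, Actc1 higher and Actg2, Actb and Actg1 lower (39.8% of all genes called). In MYOD-/- labelled EV cells 3 of the 6 changed (43.2% of all genes called), and in MYOD-/- labelled MUNC cells also 3 of the 6 (44.8%). In both of these lines the 3 were Acta1, Actc1 and Acta2, all higher in DM. The median log2 fold change of the 6 genes was -1.68, -0.76, 0.68 and 1.08 in these 4 lines in turn, and that of all genes lay between 0.023 and 0.085.

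Among the sarcomeric forms, Acta1 was the more abundant in every library. In DM it stood at 210.01 and 185 TPM in MYOD-/- labelled EV cells and at 344 and 239 TPM in MYOD-/- labelled MUNC cells, against 54.2 and 13.7 TPM in WT-labelled MUNC cells and 1.93 and 0.289 TPM in WT-labelled EV cells. In GM it stood at 6.81 and 6.62 TPM (WT-labelled EV), 1.87 and 15.1 TPM (WT-labelled MUNC), 2.82 and 11.2 TPM (MYOD-/- labelled EV) and 4.06 and 7.52 TPM (MYOD-/- labelled MUNC). The GM groups overlapped each other, and both MYOD-/- labelled DM groups lay above every other library without overlapping each other. Acta1 rose in DM by 4.52 ± 1.06 (log2 fold change ± SE, as in all such pairs below; adjusted p = 0.0054) in MYOD-/- labelled EV cells and by 5.39 ± 1.10 (0.00237) in MYOD-/- labelled MUNC cells. Its difference was 1.74 ± 0.95 (0.169) in WT-labelled MUNC cells, whose media overlapped, and -2.77 ± 1.06 (0.0596) in WT-labelled EV cells, whose DM libraries were both the lower.

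Actc1 was close to the limit of counting in the WT-labelled cells in GM, where its 4 libraries held 17, 6, 2 and 13 counts. Its levels there were 0.362 and 0.158 TPM (EV) and 0.0434 and 0.311 TPM (MUNC), and in MYOD-/- labelled GM they were 1.30 and 1.73 TPM (EV) and 2.37 and 0.547 TPM (MUNC). In DM it stood at 93.2 and 137 TPM (EV) and 112 and 119 TPM (MUNC) in MYOD-/- labelled cells, 7.63 and 1.06 TPM in WT-labelled MUNC cells, and 0.696 and 0.0783 TPM in WT-labelled EV cells. The 4 MYOD-/- labelled DM libraries overlapped each other and lay above the other 12, and below them each group overlapped the next in order.

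Actc1 rose in DM by 6.00 ± 1.00 (adjusted p = 0.000742) and 6.03 ± 0.99 (0.000657) in the MYOD-/- labelled EV and MUNC cells, and by 4.33 ± 1.16 (0.0118) in WT-labelled MUNC cells. In WT-labelled EV cells its difference was 0.37 ± 1.26 (0.847), with a 95% interval of -2.40 to 3.13. The rise in WT-labelled MUNC cells differed in size between the replicate numbers, 7.21 in replicate 1 and 1.61 in replicate 2. It did not pass without GM replicate 1 of that line (3.46, adjusted p = 0.0871) or without its DM replicate 1 (2.45, 0.126).

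Among the smooth muscle forms, Acta2 was made at levels second only to the cytoplasmic forms. In GM it stood at 951 and 1058 TPM (WT-labelled EV), 825 and 1618 TPM (WT-labelled MUNC), 663 and 489 TPM (MYOD-/- labelled EV) and 712 and 177 TPM (MYOD-/- labelled MUNC). In DM it stood at 266 and 168 TPM (WT-labelled EV), 1113 and 887 TPM (WT-labelled MUNC), 1728 and 1775 TPM (MYOD-/- labelled EV) and 1719 and 1560.2 TPM (MYOD-/- labelled MUNC). The 4 MYOD-/- labelled DM libraries were among the highest 5, with 1 WT-labelled MUNC library in GM, and 1 MYOD-/- labelled MUNC library in GM was as low as WT-labelled EV cells in DM.

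Acta2 thus changed in opposite directions in the 2 lines with the empty vector. Its change was -2.39 ± 0.51 (adjusted p = 0.00387) in WT-labelled EV cells, a fall, and it rose by 1.36 ± 0.50 (0.0453) in MYOD-/- labelled EV cells and by 1.63 ± 0.50 (0.0205) in MYOD-/- labelled MUNC cells. In WT-labelled MUNC cells the media overlapped (-0.51 ± 0.49, 0.441). The rise in MYOD-/- labelled EV cells passed narrowly: with 1 library left out its adjusted p was 0.0596 to 0.223 for 12 of the 16 libraries, those other than the GM libraries of the WT-labelled and MYOD-/- labelled MUNC lines. In MYOD-/- labelled MUNC cells the call was lost without GM replicate 2 (0.92, 0.0775), DM replicate 1 (1.51, 0.0837) or DM replicate 2 (1.67, 0.0593).

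Actg2, made at lower levels, separated the genotype labels in DM. It stood in GM at 114 and 84.9 TPM (WT-labelled EV), 19.2 and 37.1 TPM (WT-labelled MUNC), 76.9 and 62.4 TPM (MYOD-/- labelled EV) and 71.3 and 24.7 TPM (MYOD-/- labelled MUNC). In DM it stood at 11.1 and 7.17 TPM (WT-labelled EV), 9.49 and 4.31 TPM (WT-labelled MUNC), 89.2 and 76.9 TPM (MYOD-/- labelled EV) and 90.7 and 73.6 TPM (MYOD-/- labelled MUNC). The 4 WT-labelled DM libraries were the lowest of the 16, and the other groups formed a chain in which each overlapped the next. Actg2 fell in DM in both WT-labelled lines, with changes of -3.63 ± 0.51 (adjusted p = 0.000305) in EV and -2.27 ± 0.49 (0.00388) in MUNC cells. In the MYOD-/- labelled lines the libraries of the media overlapped, except that in TPM those of EV cells met at 76.9 without overlapping, and the differences were 0.01 ± 0.46 (EV; 95% interval -1.01 to 1.02) and 0.52 ± 0.46 (MUNC; -0.49 to 1.54).

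The cytoplasmic forms varied least. Actb stood in GM at 3898 and 6118 TPM (WT-labelled EV), 3977 and 6869 TPM (WT-labelled MUNC), 3515 and 5249 TPM (MYOD-/- labelled EV) and 3659 and 4938 TPM (MYOD-/- labelled MUNC). In DM it stood at 2569 and 3142 TPM, 2931 and 3079.6 TPM, 3632 and 3815 TPM, and 3692 and 3609 TPM in the same order. In all 4 GM groups replicate 2 was the higher, by 1.35-fold to 1.73-fold, and the DM replicates lay closer together (0.978-fold to 1.22-fold). Every WT-labelled DM library lay below every GM library, while the MYOD-/- labelled DM libraries lay among the lower GM ones.

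Actb fell in DM in both WT-labelled lines, with changes of -0.96 ± 0.32 (adjusted p = 0.0326) in EV and -1.06 ± 0.32 (0.0205) in MUNC cells. The differences in the MYOD-/- labelled lines were -0.50 ± 0.31 in EV and -0.50 ± 0.31 in MUNC cells (0.224 and 0.217). In the WT-labelled lines Actb was lower in DM in replicate 1 alone and in replicate 2 alone (-0.87 and -1.03 in EV, -0.69 and -1.32 in MUNC cells). Both calls were still lost when certain single libraries were left out, also where the estimated fall became larger. That in EV cells was lost without GM replicate 2 (-0.64, 0.223), DM replicate 1 (-0.76, 0.199) or DM replicate 2 (-1.19, 0.0503). That in MUNC cells was lost without GM replicate 2 (-0.59, 0.203), DM replicate 1 (-0.98, 0.115) or DM replicate 2 (-1.17, 0.0621).

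Actg1 stood in GM at 5956 and 7449 TPM (WT-labelled EV), 4617 and 5942 TPM (WT-labelled MUNC), 4439.9 and 5459 TPM (MYOD-/- labelled EV) and 4594 and 4808 TPM (MYOD-/- labelled MUNC). In DM it stood at 4879 and 4752 TPM, 3136 and 2939 TPM, 4797 and 4539 TPM, and 4682 and 4257 TPM in the same order. WT-labelled EV cells in GM were the highest group and WT-labelled MUNC cells in DM the lowest, neither overlapping another, and the other 6 groups each overlapped the next. Actg1 fell in DM in both WT-labelled lines, with changes of -0.64 ± 0.18 (adjusted p = 0.0143) in EV and -1.01 ± 0.18 (0.00112) in MUNC cells, against differences of -0.34 ± 0.18 in both MYOD-/- labelled lines (0.136 and 0.142). The call in EV cells was lost without GM replicate 2 (-0.51, 0.0992) or DM replicate 1 (-0.58, 0.0853).

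**Figure D2:**
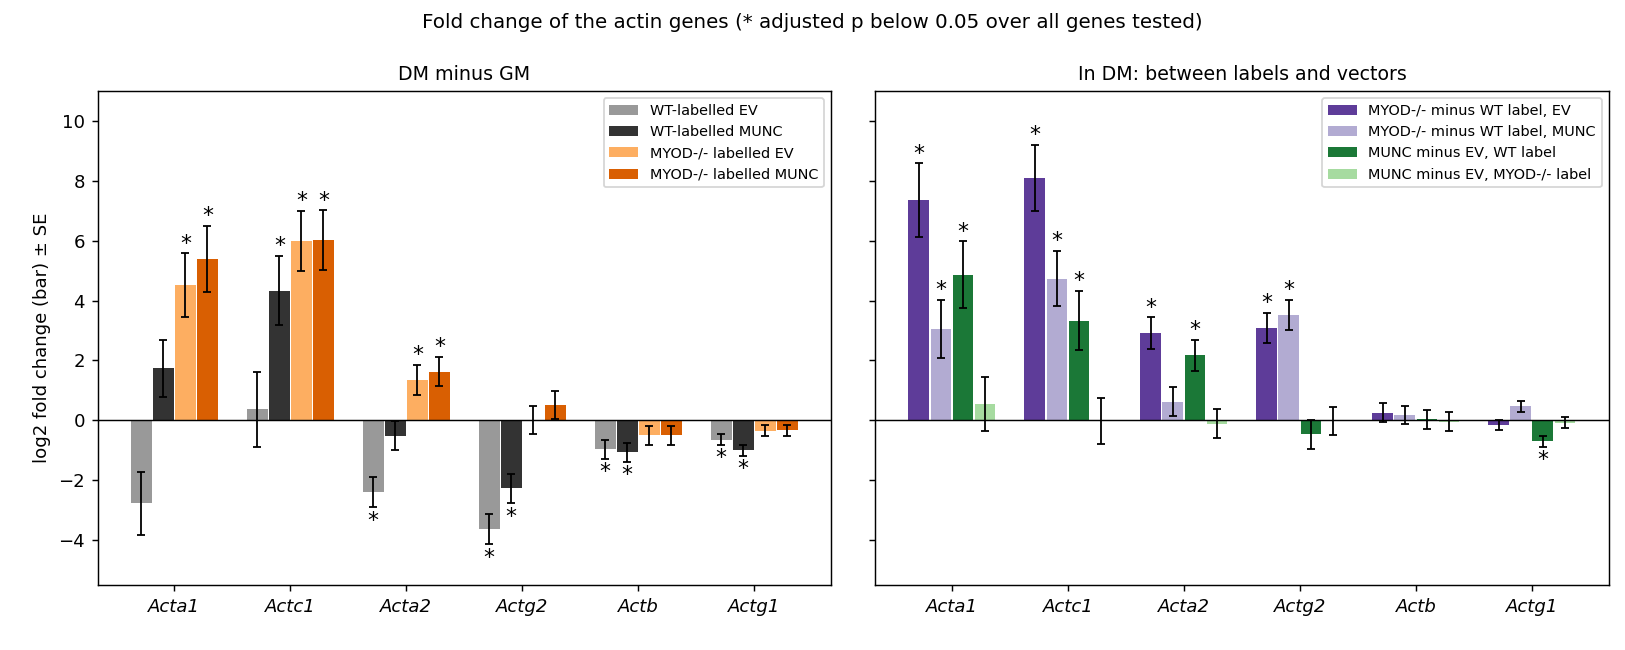
log2 fold change (bars) with its SE (error bars) of the 6 actin genes, from GM to DM in the 4 lines (left) and between genotype labels or vectors in DM (right); asterisks mark an adjusted p below 0.05 over all genes tested. On the left the muscle forms Acta1 and Actc1 carry the tallest bars, in the MYOD-/- labelled lines (4.52 to 6.03), and on the right the MUNC minus EV bars of the MYOD-/- label carry no asterisk.

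In GM none of the 6 genes passed this test between the genotype labels, in EV cells, where 10.4% of all genes were called, or in MUNC cells, where 9.99% were. At an unadjusted p below 0.05 Actg1 passed in EV cells (-0.46 ± 0.18, unadjusted p = 0.0235), and in MUNC cells Acta2 (-1.52 ± 0.50, 0.011) and Actc1 (3.04 ± 1.20, 0.0282) did. The same was true of 24.4% of all genes in each comparison. Over all genes, edgeR made 1550 and 1496 calls in EV and MUNC cells and DESeq2 2089 and 2128, and DESeq2 called 1 of the 6, Acta2 in MUNC cells (-1.50, adjusted p = 0.016).

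In DM the labels differed widely. In EV cells 4 of the 6 genes were higher in the MYOD-/- labelled libraries (31.4% of all genes called): Actc1 by 8.09 ± 1.11 (adjusted p = 0.000384), Acta1 by 7.36 ± 1.23 (0.00116), Actg2 by 3.08 ± 0.50 (0.00103) and Acta2 by 2.91 ± 0.52 (0.00185). Each of the 4 calls held whichever 1 of the 16 libraries was left out. Actb (0.26 ± 0.31) and Actg1 (-0.16 ± 0.18) had 95% intervals of -0.43 to 0.95 and -0.55 to 0.22. In MUNC cells 3 of the 6 were higher (22.7% of all genes called): Actc1 by 4.73 ± 0.92 (0.00395), Actg2 by 3.52 ± 0.52 (0.000669) and Acta1 by 3.05 ± 0.98 (0.0443). The Acta1 call was lost, with adjusted p of 0.0594 to 0.259, without any 1 of 8 libraries: both WT-labelled EV libraries in GM, both WT-labelled MUNC libraries in DM, and the 4 MYOD-/- labelled libraries in DM. Acta2, at 0.63 ± 0.49 (0.405), did not pass in MUNC cells, though both MYOD-/- labelled libraries were the higher.

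The MUNC vector raised its own transcript, counted as Gm45923, unequally under the labels. It stood at 10398 to 15551 TPM in WT-labelled MUNC libraries against 6.72 to 60.8 TPM with EV, and at 283 to 749.98 TPM in MYOD-/- labelled MUNC libraries against 7.19 to 86.4 TPM with EV. In WT-labelled cells in GM 1 of the 6 actin genes differed (13.8% of all genes called): Actg2 was lower with MUNC (-1.82 ± 0.48, adjusted p = 0.0271). That call was lost without EV replicate 1 (-1.55, 0.144), EV replicate 2 (-2.04, 0.0533) or MUNC replicate 1 (-1.40, 0.172).

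In WT-labelled cells in DM 4 of the 6 differed between the vectors (33.3% of all genes called). Acta1 was higher with MUNC by 4.86 ± 1.11 (adjusted p = 0.00632), Actc1 by 3.33 ± 1.00 (0.0242) and Acta2 by 2.17 ± 0.51 (0.00711), and Actg1 was lower (-0.70 ± 0.18, 0.0101). All 4 calls depended on EV replicate 2, the library with the lowest Acta1 and Acta2 of all 16. Without it their log2 fold changes were 4.11, 2.56, 1.92 and -0.66 in the same order, with adjusted p of 0.0562, 0.142, 0.0687 and 0.0521. Without MUNC replicate 1, Actc1 (1.47, 0.309) and Actg1 (-0.68, 0.063) also did not pass. Actb was at nearly the same level with either vector (0.03 ± 0.31, 95% interval -0.66 to 0.72).

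In the MYOD-/- labelled cells edgeR called none of the 6 genes and none of all genes tested, in GM (0%) or in DM (0%). At an unadjusted p below 0.05 there were 191 genes in GM and 152 in DM, none of them an actin gene, and DESeq2 called 0 and 4 genes. The differences in GM ran from -0.54 ± 0.46 (Actg2; 95% interval -1.56 to 0.47) to -0.04 ± 0.31 (Actb; -0.73 to 0.64). Those in DM ran from -0.11 ± 0.49 (Acta2; -1.19 to 0.96) to 0.55 ± 0.90 (Acta1; -1.44 to 2.53). The intervals for Actg1, the narrowest, were -0.47 to 0.30 in GM and -0.46 to 0.31 in DM.

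Whether the response to DM itself differed was tested as an interaction. Between the genotype labels with the empty vector it differed for 3 of the 6 genes (2.58% of all genes called): the signed log2 change, MYOD-/- labelled minus WT-labelled, differed by 7.30 ± 1.49 for Acta1 (adjusted p = 0.0298), 3.75 ± 0.71 for Acta2 (0.0224) and 3.64 ± 0.68 for Actg2 (0.0214). The response of Actg2 was the smaller in size under the MYOD-/- label (0.01 against -3.63). For Acta2 the 2 responses had opposite signs and both passed, but the rise under the MYOD-/- label did not pass when libraries were scaled by DESeq2 size factors or by total counts. Each of the 3 interactions was lost without any 1 of 7 libraries, those of the EV lines other than the WT-labelled DM replicate 1, with adjusted p of 0.0528 to 0.122, and Acta1 also without the MYOD-/- labelled MUNC replicate 1 in DM (0.05002). Actc1 differed by 5.63 ± 1.67 but did not pass (0.11), and DESeq2 called it with the other 3 (5.60, adjusted p = 0.0152).

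With the MUNC vector the responses of the 2 labels differed for none of the 6 genes by edgeR (1.38% of all genes called). The closest was Actg2 (2.80 ± 0.67, adjusted p = 0.0837), and at an unadjusted p below 0.05, as for 1688 of all genes, Acta1 (3.65 ± 1.35), Acta2 (2.14 ± 0.70) and Actg1 (0.67 ± 0.25) passed with it. DESeq2 called Acta2 and Actg2 among 497 genes. Between the vectors in WT-labelled cells none passed by edgeR (3.33% of all genes called), with Acta1 (4.51 ± 1.42, 0.118), Actc1 (3.96 ± 1.80, 0.292) and Acta2 (1.88 ± 0.70, 0.184) past an unadjusted p of 0.05 among 2554 genes, and DESeq2 called Acta1 among 1155. Between the vectors in MYOD-/- labelled cells edgeR called none of the 6 and none of all genes (0%), with 114 genes at an unadjusted p below 0.05 and 0 by DESeq2.

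The make-up of actin mRNA was described by the share of each gene in the summed TPM of the 6. The cytoplasmic forms together made up 97.1% ± 1.02 (SD, n = 2 here and below) of actin TPM in WT-labelled EV cells in DM, the highest of the 8 groups, and 79.3% ± 0.773 and 79.6% ± 0.391 in MYOD-/- labelled MUNC and EV cells in DM, the lowest. The smooth muscle forms were the counterpart, at 2.87% ± 1.00 in WT-labelled EV cells in DM and at 17.4% ± 0.26 and 16.8% ± 0.308 in the MYOD-/- labelled EV and MUNC cells in DM. WT-labelled MUNC cells in DM came near the latter, at 14.2% ± 1.84, and the GM groups ranged from 5.34% ± 4.69 to 10.2% ± 1.76. The sarcomeric forms stayed a small part throughout. They reached 3.95% ± 0.465 in MYOD-/- labelled MUNC cells and 2.97% ± 0.131 in MYOD-/- labelled EV cells in DM, 0.533% ± 0.452 in WT-labelled MUNC cells in DM, and no more than 0.0812% ± 0.048 in any other group.

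**Figure D3:**
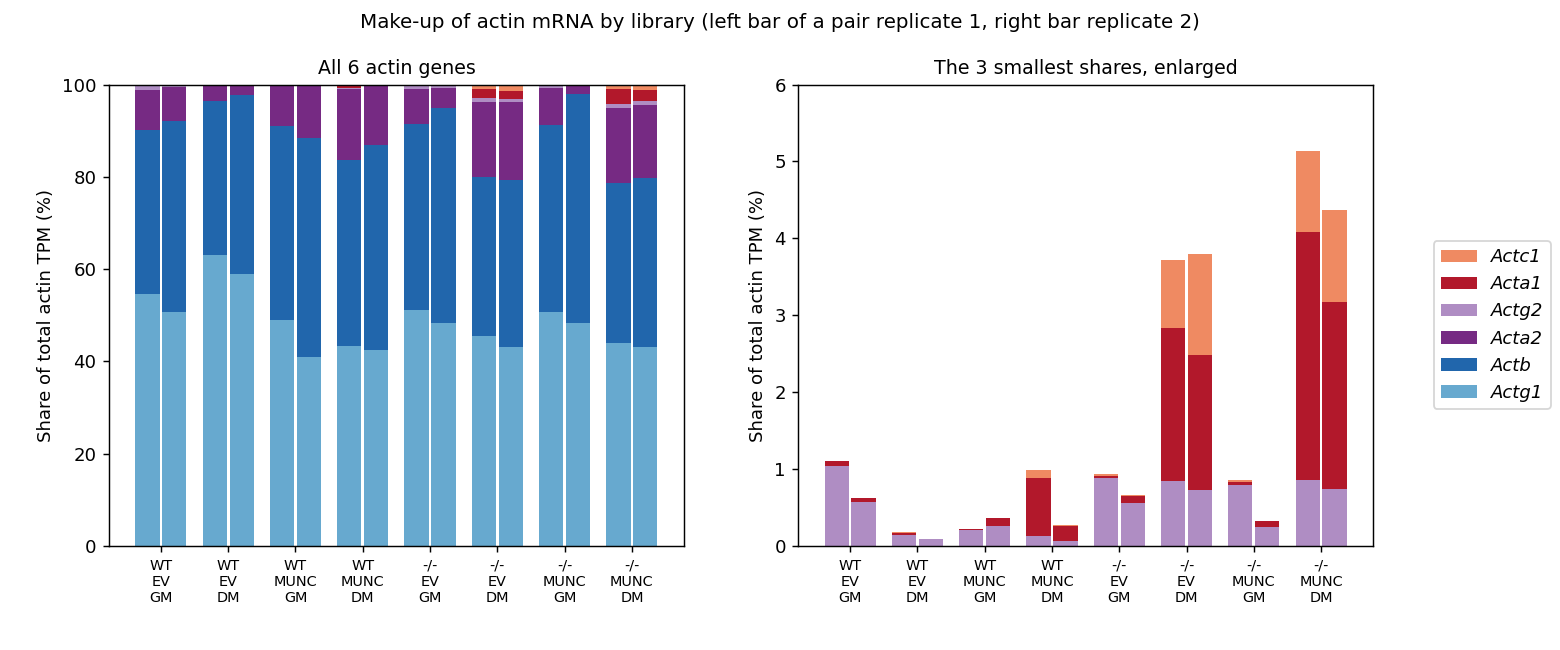
Share of each actin gene in the summed TPM of the 6, in percent, for each library (left bar of a pair replicate 1, right bar replicate 2); the right panel enlarges the 3 smallest shares. Actb and Actg1 fill most of every bar, and Acta1 and Actc1 are visible mainly in the MYOD-/- labelled DM libraries, where they sum to 2.97% and 3.95% on average.

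Shares were compared across all 16 libraries with an exact permutation test, two-sided, that exchanged libraries only within the 4 strata formed by the other 2 factors (smallest possible p 0.00154, Benjamini-Hochberg adjusted over 18 tests). Only Actc1 passed. Its share was higher under the MYOD-/- label (0.563% against 0.0172% on average, adjusted p = 0.0278), with both MYOD-/- labelled libraries above both WT-labelled ones in 4 of 4 strata. It was also higher in DM (0.572% against 0.00863%, adjusted p = 0.0417), with both DM libraries the higher in 3 of 4 strata. Both of the higher averages came mostly from the MYOD-/- labelled libraries in DM. By group the mean share was 1.09% (EV) and 1.13% (MUNC) there, 0.0602% in WT-labelled MUNC cells in DM, and at most 0.0159% elsewhere. The unadjusted p for the genotype label, 0.00154, is the smallest this test can give, and it reflects spread between libraries, not between separately made lines. With a library left out fewer arrangements remain, so the smallest possible p is larger. Even so, some share differences that did not pass on all 16 libraries passed with a library left out. The call by genotype label was lost without replicate 1 or replicate 2 of WT-labelled MUNC cells in GM (adjusted p = 0.0556 for each), with the difference at 0.546 percentage points with or without them. That by medium was lost without the same libraries (0.0602 and 0.0833) or without replicate 1 of WT-labelled EV cells in DM (0.0648), with the difference between 0.562 and 0.563 percentage points each time. For Acta1 the difference by medium was 1.24 percentage points (adjusted p = 0.0556), and for Actb it was -5.60 percentage points (0.0556). Between the vectors none passed, the closest being Acta1 (0.353 percentage points higher with MUNC) and Actg1 (-6.66 percentage points), each with an adjusted p of 0.059. When libraries were compared only within a replicate number (replicate block), Actc1 by medium did not pass (0.0563), and Actb passed by medium and by vector (0.0469 for each).

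Ratios were taken within each pair of genes, and do not tell which of the 2 moved. The ratio of Actb to Actg1 was 0.594 ± 0.0953 in WT-labelled EV cells in DM and 0.738 ± 0.118 in GM, against 1.01 ± 0.209 and 0.991 ± 0.0799 in WT-labelled MUNC cells in GM and DM. In the MYOD-/- labelled groups it lay between 0.799 ± 0.0589 and 0.912 ± 0.163. It was higher in replicate 2 than in replicate 1 in 8 of 8 groups, the same libraries that carried the high Zrsr1 counts, whose part in the ratio was not tested. The ratio of Acta2 to Actg2 spread further: it was 8.23 ± 0.552 to 10.4 ± 2.92 in 3 of the 4 GM groups and 43.4 ± 0.405 in WT-labelled MUNC cells in GM, 20.1 ± 1.58 to 23.7 ± 0.421 in 3 of the 4 DM groups, and 162 ± 62.7 in WT-labelled MUNC cells in DM. In all 4 lines both DM libraries had the higher ratio. Actg2 rested on 269 to 575 counts in the WT-labelled DM libraries. The ratio of Acta1 to Actc1 was 1.80 ± 0.639 and 2.54 ± 0.746 in MYOD-/- labelled EV and MUNC cells in DM and 10.0 ± 4.10 in WT-labelled MUNC cells in DM. In the WT-labelled GM groups it was 30.4 ± 16.4 (EV) and 45.9 ± 3.88 (MUNC), with Actc1 at 17 counts or fewer. The MYOD-/- labelled GM groups were lower, at 4.33 ± 3.05 (EV) and 7.73 ± 8.51 (MUNC), as were WT-labelled EV cells in DM (3.23 ± 0.653).

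**Figure D4:**
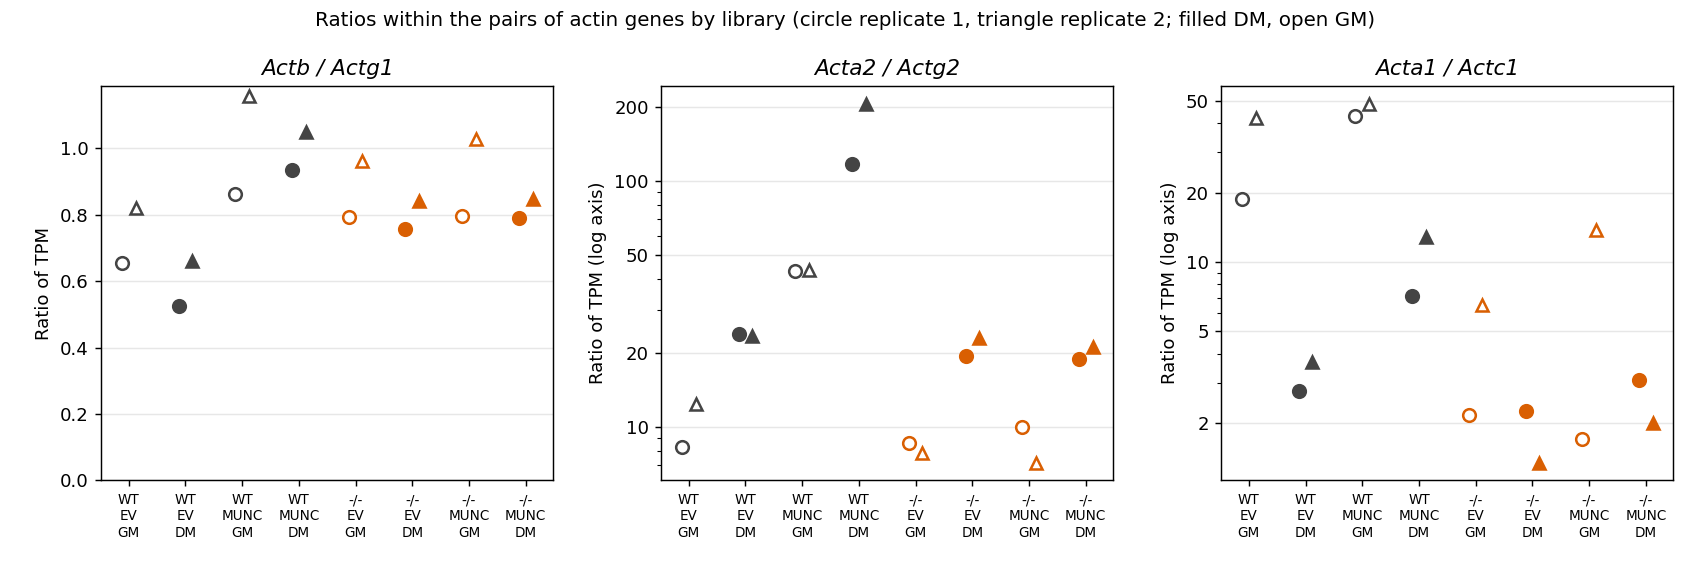
Ratio of TPM between the members of the 3 pairs of actin genes in each library (linear axis for Actb to Actg1, log axes for the others); circles are replicate 1, triangles replicate 2, filled symbols DM and open symbols GM, grey the WT label and orange the MYOD-/- label. In WT-labelled MUNC cells the ratio of Acta2 to Actg2 is the highest both in GM (43.4 on average) and in DM (162), and Actb to Actg1 is higher in replicate 2 in every group.

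Over the 16 libraries, log2 CPM (counts scaled by library size, prior count 2) of Acta1 and Actc1 had a Pearson correlation of 0.90 and of Actb and Actg1 of 0.80, while the 2 smooth muscle forms had 0.49 and Acta1 with Actb -0.12. These and the next values describe libraries that share groups, depth and replicate numbers, and genes are not independent, so no test is attached. Among 10142 other genes with a mean of at least 5 CPM, the gene most like Actb was Srf itself (0.98), followed by Slc20a2 (0.95), a phosphate transporter, and Tnk2 (0.95), a tyrosine kinase. Srf had a mean of 54.5 ± 25.2 TPM (SD, n = 2) in WT-labelled EV cells in GM, its highest group. It stood at 53.6 ± 26.6 TPM in WT-labelled MUNC cells in GM and at 23.6 ± 0.499 TPM in those cells in DM, its lowest group. Srf thus spread widely between the replicates in these GM groups, as Actb did. The part of the replicate number in their correlation was not tested. Actg1 was most like Emd (0.94), which codes for emerin of the inner nuclear membrane, Timm22 (0.94) and Larp1 (0.93).

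For Acta1 the most alike genes were Rcan1 (0.92), an inhibitor of calcineurin, Nbl1 (0.92), a BMP antagonist, and Vasn (0.91), and for Actc1 they were Prkacb (0.96), a catalytic subunit of protein kinase A, Enah (0.96), which promotes elongation of actin filaments, and Abca5 (0.95). Acta2 was most like Parva (0.92), which links integrins to actin, Vgll3 (0.92), a cofactor of Tead factors, and Frmd6 (0.91). Actg2 was most like Dnajc21 (0.90), Mcam (0.90), an adhesion molecule of vascular smooth muscle and endothelium, and Rras2 (0.89).

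Genes that act on actin were counted from 5 lists chosen for their roles, and their counts are to be read against all genes tested, of which 37.5%, 39.8%, 43.2% and 44.8% were called in the 4 lines in the order below (19.2%, 20.5%, 23.5% and 24.4% higher in DM, and 18.3%, 19.2%, 19.7% and 20.4% lower). Of 9 tested genes that act in actin gene transcription, DM raised 1 and lowered 3 in WT-labelled EV cells, raised 2 and lowered 2 in WT-labelled MUNC cells, raised 4 and lowered 1 in MYOD-/- labelled EV cells, and raised 3 and lowered 1 in MYOD-/- labelled MUNC cells. Srf fell in the WT-labelled EV (-1.16 ± 0.41, adjusted p = 0.0435) and MUNC lines (-1.40 ± 0.41, 0.0184) and did not pass in the MYOD-/- labelled ones (-0.76 ± 0.40 and -0.61 ± 0.40). Tead4 fell in all 4 lines (-1.18 to -1.66). Abra, a muscle activator of the Srf pathway, rose by 3.15 ± 0.74 and 4.99 ± 0.74 in the MYOD-/- labelled EV and MUNC lines (means of 0.0422 and 0.0172 TPM in GM and of 0.477 and 0.784 TPM in DM), and did not pass in the WT-labelled EV (1.28 ± 1.18) and MUNC lines (2.70 ± 1.03, adjusted p = 0.0567). Myocd was not tested, at no more than 0.0506 TPM.

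Of the 18 genes of actin folding and maturation, more fell than rose in each of the 4 lines, with 10, 12, 11 and 12 lower and 2, 3, 2 and 2 higher in the WT-labelled EV, WT-labelled MUNC, MYOD-/- labelled EV and MYOD-/- labelled MUNC lines. Their median log2 fold changes were -0.51, -0.63, -0.88 and -0.71, beside 0.023 to 0.085 over all genes. Cct6a, a subunit of the chaperonin that folds actin, fell in all 4 (-0.996 to -1.42). Unc45b, a myosin chaperone of muscle, rose in all 4 (4.76 to 7.90), to 2.70 and 2.65 TPM in the MYOD-/- labelled lines and to 0.159 and 0.311 TPM in the WT-labelled ones.

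Of 13 tested genes that bind or recycle actin monomers, 1, 1, 2 and 3 rose and 4 fell in each of the 4 lines, in the same order. Tmsb4x, the main monomer-sequestering protein, rose in the MYOD-/- labelled EV (1.60 ± 0.50, adjusted p = 0.0223) and MUNC lines (1.53 ± 0.49, 0.0264), and did not pass in the WT-labelled ones (-0.34 ± 0.48 and 0.56 ± 0.49). Gsn, which severs filaments, rose in all 4 lines (0.61 to 1.47), and Pfn1, profilin, fell in all 4 (-0.66 to -0.95). Of 22 genes of nucleation and elongation, 1, 3, 6 and 6 rose and 5, 5, 4 and 3 fell. Lmod2 and Lmod3, leiomodins that nucleate filaments in striated muscle, rose in 3 of the 4 lines: by 6.13 ± 0.77 and 4.54 ± 0.94 in MYOD-/- labelled EV cells, by 7.10 ± 0.76 and 4.99 ± 0.92 in MYOD-/- labelled MUNC cells, and in WT-labelled MUNC cells by 4.50 ± 1.11 for Lmod3 (adjusted p = 0.00795) and from 0 to a mean of 0.264 TPM for Lmod2 (0.0039). In WT-labelled EV cells neither passed (0.47 and 0.766). The smooth muscle leiomodin Lmod1 fell in WT-labelled EV cells (-3.14 ± 0.45), rose in the MYOD-/- labelled EV (1.39 ± 0.41) and MUNC lines (1.49 ± 0.41), and did not pass in WT-labelled MUNC cells (-0.02 ± 0.39). Of 7 capping genes 1 rose in each line and 1, 1, 2 and 1 fell. The one that rose was Tmod1, tropomodulin, each time: by 1.63 ± 0.38, 1.84 ± 0.42, 5.76 ± 0.36 and 5.51 ± 0.35. Those that fell were Capzb in WT-labelled EV cells (-0.41 ± 0.15), Capza1 in WT-labelled MUNC (-0.60 ± 0.17) and MYOD-/- labelled EV cells (-0.47 ± 0.17), and Capg in the MYOD-/- labelled EV (-0.90 ± 0.30) and MUNC lines (-1.07 ± 0.30). In DM with the empty vector Tmod1 was higher under the MYOD-/- label by 5.82 ± 0.35 (adjusted p = 2.78e-06), with 35.3 ± 10.4 against 0.573 ± 0.0689 TPM (SD, n = 2).

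Markers of smooth and cardiac muscle were mixed, some near 0 and others well above it. Of 7 smooth muscle markers the contractile myosin Myh11 reached at most 0.0885 TPM and Myocd 0.0506 TPM in any library, while Tagln, an actin-binding protein also made by other contractile cells, ranged from 7.67 to 208 TPM and Smtn, smoothelin, from 23.8 to 60.6 TPM. The summed TPM of these 7 markers was 35.4 to 36.6 in WT-labelled EV cells in DM, where Acta2 and Actg2 were low, 65.6 to 83 in WT-labelled MUNC cells in DM and 139 to 208 in the MYOD-/- labelled DM libraries. It was 239 to 248 in WT-labelled EV cells in GM and 83 to 116 in the other GM groups. Of 7 cardiac markers the myosin Myh6 was at 0 in 11 libraries and at most 0.018 TPM, while the transcription factors Nkx2-5 and Gata4 ranged from 11.3 to 41.5 and from 1.99 to 15.4 TPM. Their sum was 26.6 to 31.8 TPM in the MYOD-/- labelled DM libraries, where Actc1 was highest, and 22.5 to 51.6 TPM over all libraries. Of 7 myoblast markers, Myod1 among them, Pax7 was at most 0.059 TPM and Myf5 was 62.5 to 136 TPM, and their sum was 633 to 777 TPM in the MYOD-/- labelled DM libraries and 133 to 320 TPM elsewhere. The largest part there was Itga7, with means of 442 (EV) and 446 TPM (MUNC), against 52.5 to 122 TPM in the other groups. Cdh15, Myog and Myod1 also had their highest means in these groups. Des did not: its mean was 27.5 TPM in WT-labelled EV cells in DM, against 16.3 (EV) and 13.7 TPM (MUNC). The part of these markers in the actin differences was not tested. Markers of fibroblasts, endothelium and leukocytes summed to at most 17.5, 3.22 and 3.26 TPM, and of 3 epithelial markers Epcam was at 0 in all 16 libraries, with a sum of 14.2 to 21.6 TPM in WT-labelled EV cells in DM and at most 2.12 TPM elsewhere.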

How the data were processed

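Poly(A) RNA of 16 C2C12 libraries was prepared with a strand-marking kit and sequenced as paired reads of 75 bases, per the labels' protocols. The authors deposited estimated counts and TPM per transcript for each library, made with bcl2fastq and kallisto on the mouse build mm10, per the submitters' processing notes. The sources used here give no versions and no strand setting. Of 35818 transcripts, 35492 were named by the RefSeq table (GRCm38.p6) and 188 by GENCODE M21. The 138 without a symbol, with 0.28% to 0.941% of a library's counts, were left out of the sums over genes. The deposited estimated counts were summed for each of 24497 genes and rounded to whole numbers. TPM, the authors' deposited values, were summed for levels and shares.

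One edgeR quasi-likelihood model (edgeR 4.0.16, R 4.3.3) with TMM scaling and filterByExpr was fitted to 14972 genes with 8 group means (8 residual degrees of freedom), and 12 comparisons and 4 interactions were drawn from it with Benjamini-Hochberg adjustment over all genes. Scripts were tested on simulated data. Alternatives were DESeq2 1.42.0, limma 3.58.1 on log2(TPM + 1) and log2(TPM + 0.1), DESeq2 size factors, total counts, other filters, effective lengths, a threshold of 0.01, a replicate block and leaving out each library. The text names the 6 actin genes, the 3 genes most correlated with each, and up to 2 genes per list and comparison with the largest change past the threshold. Members and lists were chosen with earlier results of these data known. Summed counts per library of 35832002 to 107732971 set the precision, and Actc1 in WT-labelled GM, with 17 counts or fewer, is the least precise value.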

Additional observations from a re-analysis of the deposited data

Results flagged for a closer look

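For 3 of the 6 actin genes the response to DM differed between the genotype labels in cells with the empty vector, by an interaction term in edgeR's quasi-likelihood fit. The signed log2 response of Acta1, MYOD-/- labelled minus WT-labelled, differed by 7.30 (adjusted p = 0.0298): it was 4.52 in the MYOD-/- labelled and -2.77 in the WT-labelled cells, where it did not pass on its own. That of Acta2 differed by 3.75 (adjusted p = 0.0224), with responses of 1.36 and -2.39. That of Actg2 differed by 3.64 (adjusted p = 0.0214), with responses of 0.01 and -3.63. Without WT-labelled EV replicate 2 in DM the 3 differences were 6.49, 3.44 and 3.35, with adjusted p of 0.122, 0.106 and 0.099.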

How the results depend on the processing

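Of the 29 calls of an actin gene, 14 held without each of the 16 libraries. At a threshold of 0.01 the number called was 2 from GM to DM in each WT-labelled line, 2 and 0 between the vectors in WT-labelled DM and GM, and 0 for the interaction of genotype label and medium with EV. Acta2 from GM to DM in both MYOD-/- labelled lines also did not pass at 0.01. Nor did Acta1 between the labels in MUNC cells in DM. DESeq2 called 1 (Acta2) between the labels in MUNC cells in GM, 2 in the interaction of label and medium with MUNC and 1 in that of vector and medium in WT-labelled cells. For the interaction with MUNC, no filter gave 1 and limma on log2(TPM + 1) gave 2. From GM to DM, Acta2 in MYOD-/- labelled EV cells was not called with DESeq2 size factors or with total counts. Actb was not called with limma on log2(TPM + 1) in either WT-labelled line, nor on log2(TPM + 0.1) in WT-labelled EV cells. The difference of Actg2 in MYOD-/- labelled EV cells turned to -0.0352 with DESeq2, -0.0346 with its size factors, -0.0456 with no filter and -0.0275 with a filter of 5 CPM. The cause was not tested for any of these.

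Libraries with the same number correlated by -0.0126 to 0.712 (median 0.2545, 28 pairs of groups) in their deviations. Of these, 23 were above 0.1, the 6 between GM groups at 0.508 to 0.712, and 5 were not. The labels do not say what a number marks, and since not every pair was above 0.1 the block was kept as an alternative. With a replicate block the number called was 1 (Acta2) between the labels in MUNC cells in GM and 1 (Actg2) in the interaction with MUNC. In the share tests the replicate block gave adjusted p of 0.0563 for Actc1 by medium (0.563 percentage points), 0.0469 for Actb by medium (-5.60) and 0.0469 for Actb by vector (3.60).

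With each library left out, the number called ran from 2 to 5 (GM to DM, WT-labelled EV), 2 to 4 (WT-labelled MUNC), 0 to 1 (labels in MUNC GM), 0 to 1 and 0 to 4 (vectors in WT-labelled GM and DM), 0 to 3 and 0 to 2 (interactions of label with EV and MUNC) and 0 to 1 (interaction of vector, WT label). The number called also varied from GM to DM in both MYOD-/- labelled lines, and between the labels in MUNC cells in DM. From GM to DM, log2 changes that turned sign ran from -1.82 to 1.16 (Actc1, WT-labelled EV) and -0.93 to 0.08 (Acta2, WT-labelled MUNC). Those of Actg2 ran from -0.16 to 0.0529 and -0.0748 to 1.46 (MYOD-/- labelled EV and MUNC). Other comparisons turned sign too. Among them was Acta1 in GM, between the labels (0.07 in EV and -0.60 in MUNC cells on all 16 libraries) and between the vectors in WT-labelled cells (0.35). For 52 pairs of a gene and a comparison that were not called, none from GM to DM, all alternatives gave 1352 values. Of these, 70 had the other sign. Share differences ran, by medium, from 1.13 to 1.34 (Acta1), 0.511 to 0.616 (Actc1) and -6.74 to -4.46 (Actb). By genotype label they ran from 0.955 to 1.16 (Acta1), 0.494 to 0.598 (Actc1), 0.326 to 0.461 (Actg2) and -1.75 to 0.532 (Actb), and by vector from 0.252 to 0.454 (Acta1), -0.0293 to 0.0753 (Actc1) and -7.65 to -5.68 (Actg1).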
